A study of Mus musculus with 73 samples.

Results

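The basement membrane collagens Col4a1 and Col18a1 were followed across mouse tumors of the prostate, seminal vesicle, mammary gland and lung. Members were the array features whose symbol in the probe table of the platform is Col4a1 or Col18a1. They comprise 3 of 9596 features and 2 of 6795 named genes: 1 feature of Col4a1 and 2 of Col18a1, called feature A and feature B in the order of their probe identifiers. The genes were selected on their levels in these same arrays. Their levels and tumor changes are therefore given as a description with no test, and tests are reserved for other genes.

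Type IV collagen is the network-forming collagen of basement membranes, the thin sheets under epithelia and around blood vessels, muscle and fat cells. The alpha 1 chain, made by Col4a1, and the alpha 2 chain, made by Col4a2, assemble in the endoplasmic reticulum into the trimer found in nearly all basement membranes. Col18a1 encodes type XVIII collagen, a heparan sulfate proteoglycan of epithelial and vascular basement membranes, whose C-terminal fragment, endostatin, is released by proteases and inhibits endothelial cell growth.

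RNA was measured on 73 arrays printed with cDNA and read in 2 colours. On 35 reference arrays, 1 tissue (Cy3) was compared with a universal mouse reference RNA (Cy5). On 38 direct arrays, a mammary tumor (Cy5) was compared with normal mammary gland (Cy3). No dye-swapped array is labelled, so a dye bias would not cancel. The wild-type normal tissues gave 4 reference arrays each of prostate and seminal vesicle (C57BL/6) and of mammary gland and lung (FVB). The tumors all carried SV40 T/t-antigen, a viral oncoprotein pair of which large T inactivates p53 and Rb. They were 5 prostate and 6 seminal vesicle tumors of TRAMP mice (C57BL/6, probasin promoter), 4 mammary tumors of C3(1) Tag mice and 4 lung tumors of CC10 Tag mice (both FVB, each named for its promoter). The direct models were p53 null transplants (n = 5, Balb/c) and tumors labelled p53fp/fp;WAP-cre, here called p53 floxed (n = 4, C57BL6/129sv), where a milk protein promoter drives Cre. The tumors labelled Brca1 Co/Co;MMTV-cre;p53, here called Brca1 floxed, were also C57BL6/129sv (n = 5). The other models were FVB: C3(1) Tag (n = 5) and 4 in which the mammary tumor virus promoter MMTV drives an oncogene, namely PyMT, ras or her2/neu (n = 5 each) or myc (n = 4). Ages are not given in the sources used here. No label says whether arrays came from separate animals, so p-values measure the spread between these samples, which may be technical. The TRAMP tissues and the FVB tissues differ in both strain and site, which cannot be told apart.

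Between 9244 and 9572 features held a value on a reference array, with array medians from -0.05 to 0.01, and between 7042 and 7934 on a direct array, with medians from -0.42 to 0.66. Lung epithelium markers were higher in normal lung than in the other normal tissues for 9 of 10 features, and adipocyte markers were higher in normal mammary gland for 13 of 13. Of the prostate secretory features only Spink1 had enough values to be tested on the reference arrays. It was not higher in normal prostate than the mean of the other normal tissues, seminal vesicle included. In normal prostate 14 skeletal muscle features averaged 3.57 to 4.46 over the reference, against -0.13 to 0.15 in prostate tumors. Prostate comparisons below rest on arrays with that muscle signal on the normal side. In the prostate tumors, 9 of 10 epithelial features were lower and 6 of 7 neuroendocrine features higher than in normal prostate. The arrays measure bulk tissue, in which fewer cells of a type and less RNA per cell cannot be told apart.

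Col4a1 lies on chromosome 8 (chr8:11198423-11312889, minus strand) head to head with Col4a2 (chr8:11312805-11449287, plus strand), and the annotated genes overlap at their starts. The starts that RefSeq gives for their promoter windows are 21 bases apart. The 30 bases that hold both starts (chr8:11312801-11312830, plus strand, mouse build GRCm38.p6) are shown because this gene pair is compared below. Col18a1 lies on chromosome 10 (chr10:77052178-77166530, minus strand) and has 2 annotated starts. The 250 bases before each (chr10:77166531-77166780 and chr10:77113706-77113955, both minus strand) are shown because the 2 features of this gene did not give equal changes. Sequences are from RefSeq, 5′ to 3′, with the GC box (GGGCGG or its reverse complement CCGCCC) in capitals.
Col4a1 and Col4a2, both starts: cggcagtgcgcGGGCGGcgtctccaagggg
Col18a1, before start 1: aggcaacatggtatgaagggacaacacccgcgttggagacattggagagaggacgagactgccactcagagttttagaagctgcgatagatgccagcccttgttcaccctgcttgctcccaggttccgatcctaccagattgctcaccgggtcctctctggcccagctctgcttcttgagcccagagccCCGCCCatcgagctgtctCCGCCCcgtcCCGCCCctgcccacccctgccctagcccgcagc
Col18a1, before start 2: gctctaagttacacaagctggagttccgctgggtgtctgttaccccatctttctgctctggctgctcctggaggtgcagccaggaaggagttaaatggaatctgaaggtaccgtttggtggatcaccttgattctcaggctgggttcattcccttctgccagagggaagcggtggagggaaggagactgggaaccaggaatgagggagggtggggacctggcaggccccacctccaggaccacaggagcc
In the 300 bases around each start, the GC box was found once for Col4a1, 3 times for Col4a2, 3 times for the first Col18a1 start and 0 times for the second. The Col4a1 match is the box shown above and is also counted for Col4a2, as their windows overlap by 78 bases. The CCAAT box (CCAAT or ATTGG) was found once for Col4a1, Col4a2 and the first Col18a1 start, and the TATA box (TATAAA or TTTATA) at none of the 4 starts. Of 32851 mouse promoter windows of that length, 35.7% hold the GC box, 37.4% the CCAAT box and 13.6% the TATA box, on either strand. A match is a description of the letters and not a bound site. Where along each transcript the cDNA features lie was not analysed here, so the features cannot be assigned to a start.

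Col4a1 took widely different levels in the normal tissues. All levels here are log2 ratios of sample over reference. Normal mammary gland read 1.78, 1.36, 1.78 and 1.71 (1.66 ± 0.20, SD, n = 4), and normal lung read 1.67, 1.54, 1.38 and 1.58 (1.55 ± 0.12, n = 4). Normal prostate read 0.03, -0.0039, -0.05 and -0.30 (-0.08 ± 0.15, n = 4), and normal seminal vesicle read -1.32, -1.09, -0.95 and -1.41 (-1.19 ± 0.21, n = 4). The mammary and lung arrays overlapped each other and lay above all prostate arrays, which lay above all seminal vesicle arrays. In the tumors the order was another one. Over all 8 groups it ran from normal mammary gland through normal lung, seminal vesicle tumor, mammary tumor, lung tumor, prostate tumor and normal prostate to normal seminal vesicle. Each neighbouring pair in this order overlapped, except normal prostate and normal seminal vesicle.

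In seminal vesicle tumors Col4a1 was higher than in the normal gland. The 6 tumors ranged from -0.13 to 1.44 with a median of 0.88 (0.80 ± 0.60, n = 6), and every tumor lay above every normal array. The tumor minus normal difference was 1.99 ± 0.19 (SE of the limma fit), or 3.97-fold. Of all features tested at this site 16.1% had tumors that all lay above all normal arrays. The lowest of the 6, replicate 6, was also the lowest tumor for both Col18a1 features, and without it the Col4a1 difference was 2.17.

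In mammary and lung tumors Col4a1 was lower than in the normal tissue. The C3(1) Tag mammary tumors read 0.84, 0.49, 1.13 and 0.50 (0.74 ± 0.31, n = 4), all below the lowest normal gland, with a difference of -0.92 ± 0.21, or 1.89-fold lower. Quantile normalization moved that difference to -0.58. The CC10 Tag lung tumors read 0.49, 0.59, 0.29 and 0.23 (0.40 ± 0.17, n = 4), all below the normal lungs, with a difference of -1.15 ± 0.21, or 2.21-fold lower. Tumors lay wholly below normal arrays for 16.3% of features in mammary gland and 17.2% in lung. In prostate the TRAMP tumors read -0.06, 0.02, 0.25, -0.06 and 0.20 (0.07 ± 0.15, n = 5). They overlapped the normal prostates, and the difference of 0.15 ± 0.20 was smaller than its error.

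**Figure D1:**
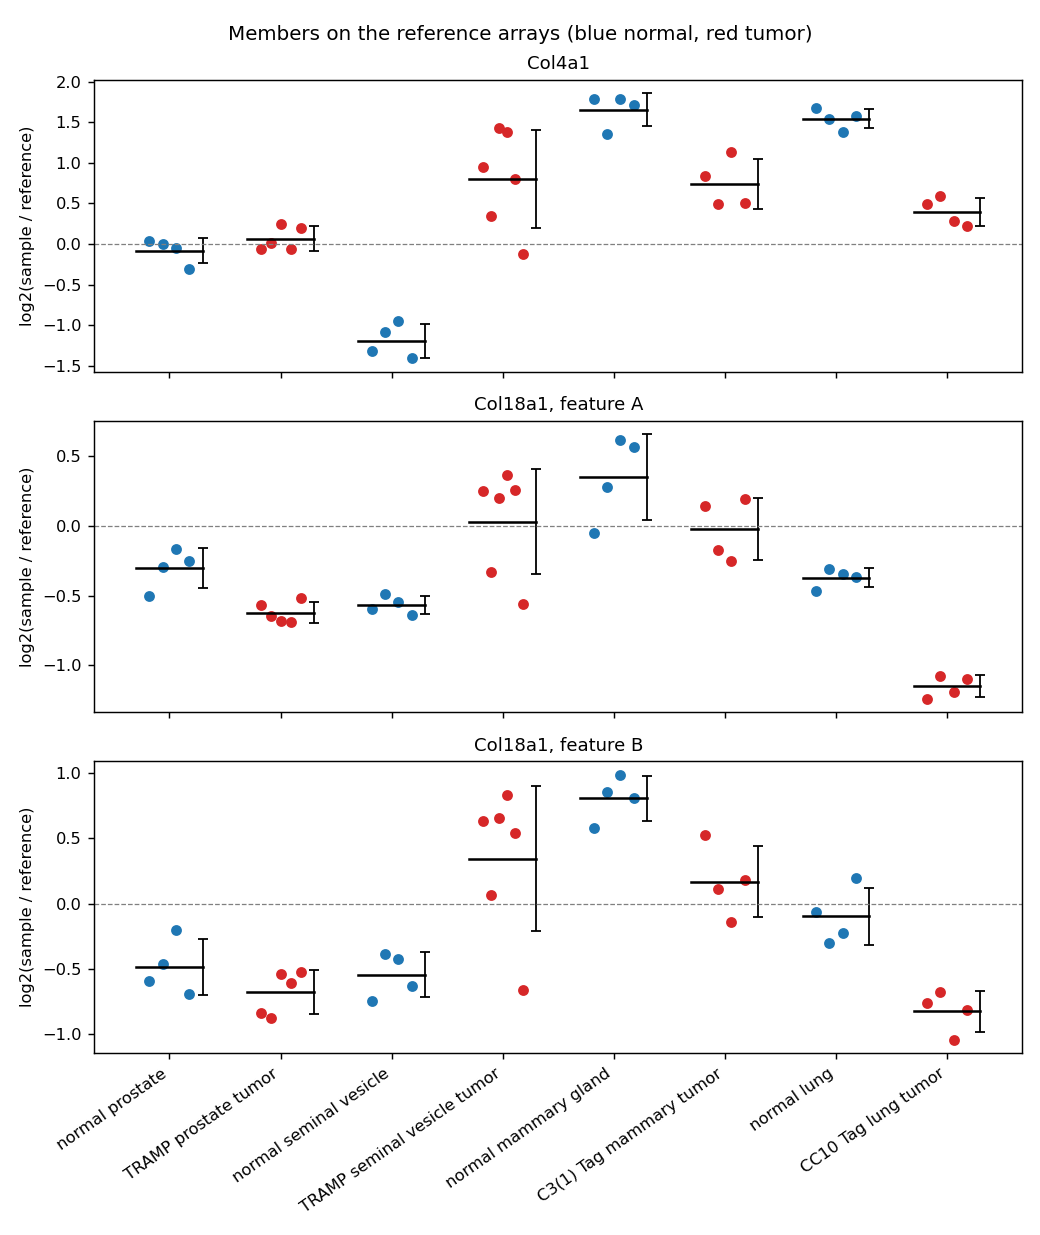
Log2 ratio of sample over reference RNA for Col4a1 and the 2 Col18a1 features (1 panel each), by tissue group, on the 35 reference arrays. Points are arrays, blue for normal tissue and red for tumor, the black line is the group mean and the bar beside it 1 SD. Col4a1 seminal vesicle tumors (mean 0.80) lie above their normal gland (mean -1.19), while mammary (0.74) and lung tumors (0.40) lie below theirs (1.66 and 1.55).

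Col18a1 spanned a narrower range of levels than Col4a1 on both features. On feature A, normal mammary gland read -0.05, 0.28, 0.61 and 0.56 (0.35 ± 0.31, n = 4) and normal prostate -0.51, -0.29, -0.17 and -0.25 (-0.31 ± 0.14, n = 4). Normal lung read -0.47, -0.31, -0.35 and -0.37 (-0.37 ± 0.07, n = 4), and normal seminal vesicle -0.60, -0.49, -0.54 and -0.64 (-0.57 ± 0.06, n = 4). The mammary gland arrays were the highest and overlapped no other normal tissue. On feature B the normal mammary glands, at 0.58, 0.86, 0.99 and 0.81 (0.81 ± 0.17, n = 4), were also highest, followed by normal lung at -0.07, -0.30, -0.22 and 0.19 (-0.10 ± 0.22, n = 4). Normal prostate read -0.60, -0.46, -0.20 and -0.69 (-0.49 ± 0.22, n = 4) and normal seminal vesicle -0.75, -0.38, -0.43 and -0.63 (-0.55 ± 0.17, n = 4), which overlapped each other. In the order of the 8 groups, feature A had gaps between normal lung and normal seminal vesicle and between prostate tumor and lung tumor, and every other neighbouring pair overlapped. On feature B all neighbouring pairs overlapped.

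In seminal vesicle tumors both Col18a1 features were higher on average than in the normal gland, but 1 tumor lay within the range of the normal arrays. Feature A ranged from -0.56 to 0.36 with a median of 0.22 (0.03 ± 0.38, n = 6), and the difference was 0.60 ± 0.14. Feature B ranged from -0.66 to 0.84 with a median of 0.59 (0.34 ± 0.56, n = 6), and the difference was 0.89 ± 0.18. In both, 5 of 6 tumors lay above all normal arrays and replicate 6 did not. Without replicate 6 the differences were 0.72 and 1.09.

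In lung tumors both Col18a1 features were lower, with no overlap. Feature A read -1.24, -1.07, -1.19 and -1.10 (-1.15 ± 0.08, n = 4), a difference of -0.78 ± 0.15. Feature B read -0.76, -0.68, -1.05 and -0.82 (-0.83 ± 0.16, n = 4), a difference of -0.73 ± 0.20. The 2 features thus gave nearly the same change in lung, 1.71-fold and 1.66-fold lower. In mammary tumors feature A read 0.14, -0.18, -0.25 and 0.19 (-0.02 ± 0.22, n = 4), which overlapped the normal glands, and the difference was -0.37 ± 0.15. Feature B read 0.52, 0.11, -0.14 and 0.18 (0.17 ± 0.28, n = 4), all below the normal glands, with a difference of -0.64 ± 0.20. Of all features, 17.2% in lung and 16.3% in mammary gland were lower without overlap.

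Prostate tumors had slightly lower Col18a1. On feature A they read -0.57, -0.64, -0.69, -0.69 and -0.52 (-0.62 ± 0.08, n = 5), all below the lowest normal prostate, and the difference was -0.32 ± 0.14. Of all features at this site 26.9% were lower without overlap. On feature B they read -0.84, -0.88, -0.54, -0.61 and -0.53 (-0.68 ± 0.17, n = 5), overlapping the normal arrays, and the difference of -0.19 ± 0.19 was as large as its error.

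The labels carry database numbers, and arrays with neighbouring numbers were grouped into runs. A run is only that grouping. In run 1, which held both normal and tumor arrays, the differences were -0.82 for Col4a1, -0.37 for feature A and -0.64 for feature B in mammary gland, and -1.07, -0.80 and -0.64 in lung. In prostate, with 1 tumor in that run, they were 0.21, -0.20 and -0.11. No run held both normal and tumor seminal vesicle. Runs 4 and 5 held only seminal vesicle tumors, 2 each. With run as a block, the comparison therefore rested on the 2 such tumors of run 6. The normal glands, all in run 3, were linked to other runs through 1 C3(1) Tag mammary tumor. In this fit the seminal vesicle differences were 1.77 for Col4a1, 0.91 ± 0.33 for feature A and 1.00 for feature B. They thus cover fewer tumors than the differences without the block.

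On the direct mammary arrays Col4a1 varied widely within models, with SDs from 0.39 to 1.18, while the model means ran from -0.90 to 0.38. All ratios here are log2 of tumor over normal gland. The p53 null transplants read -0.45, 0.16, 1.06, -0.11 and 1.23 (0.38 ± 0.73, n = 5), and the p53 floxed tumors -1.16, 1.32, 1.14 and -0.26 (0.26 ± 1.18, n = 4). The Brca1 floxed tumors read 1.60, 0.08, 0.36, -0.55 and -0.14 (0.27 ± 0.82, n = 5), and the C3(1) Tag tumors 0.27, 0.42, -1.07, 0.03 and 1.62 (0.25 ± 0.96, n = 5). Each of these 4 models held tumors above and below 0. Leaving out 1 array turned the mean below 0 in 3 of them: it was -0.09 for p53 floxed without replicate 2, -0.06 for Brca1 floxed without replicate 1 and -0.09 for C3(1) Tag without replicate 5.

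Among the 4 MMTV oncogene models Col4a1 was, as deposited, below 0 on every array of 2. The MMTV-her2/neu tumors read -1.49, -0.65, -1.37, -0.14 and -0.85 (-0.90 ± 0.55, n = 5), and the MMTV-PyMT tumors -0.73, -1.18, -0.27, -0.75 and -0.23 (-0.63 ± 0.39, n = 5). Of all features, 25.7% were below 0 on every MMTV-her2/neu array and 19.1% on every MMTV-PyMT array. MMTV-myc read -0.02, -0.31, -1.03 and 0.10 (-0.31 ± 0.51, n = 4) and MMTV-ras -1.39, -0.08, 0.24, -0.35 and 0.12 (-0.29 ± 0.65, n = 5), with arrays on both sides of 0. In the order of the 8 model means every neighbouring pair overlapped.

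Col18a1 was higher in tumor than in normal gland in the p53 and Brca1 models. In p53 floxed WAP-cre tumors feature A read 1.42, 2.45, 1.37 and 1.89 (1.78 ± 0.50, n = 4) and feature B read 1.68, 1.70, 2.87 and 2.27 (2.13 ± 0.56, n = 4), which are 3.44-fold and 4.38-fold. These arrays lay above every C3(1) Tag, MMTV-her2/neu, MMTV-myc, MMTV-ras and MMTV-PyMT array on both features. How many of all features did so was not counted. In Brca1 floxed tumors feature A read 0.56, 1.98, 0.95, 0.83 and 0.21 (0.91 ± 0.67, n = 5) and feature B read 1.61, 2.35, 1.45, 1.71 and 0.37 (1.5 ± 0.72, n = 5). All were above 0 as deposited, with replicate 5 lowest on both features. The medians of these Brca1 floxed arrays over all features ran from -0.10 to 0.44. Member values after centring are given only for C3(1) Tag, below. For all features, the share above 0 on every array was 16.1% in p53 floxed and 24.7% in Brca1 floxed tumors.

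In p53 null transplants the 2 Col18a1 features disagreed. Feature B read 0.92, 1.07, 2.54, 2.47 and 0.33 (1.47 ± 0.99, n = 5), above 0 on every array, as were 17.7% of all features. Feature A read 0.97, 0.84, -0.45, 0.80 and 0.08 (0.45 ± 0.61, n = 5). On replicate 3 feature A was below 0 and feature B was at its highest, and without that array the means were 0.67 for feature A and 1.20 for feature B.

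In the MMTV oncogene models Col18a1 stayed near 0 as deposited. Array medians over all features ran from -0.02 to 0.52 in MMTV-myc and from -0.15 to 0.63 in MMTV-ras. They ran from -0.18 to 0.07 in MMTV-her2/neu and from -0.42 to 0.28 in MMTV-PyMT. MMTV-her2/neu tumors read -0.25, -0.29, -0.16, 0.05 and -0.10 on feature A (-0.15 ± 0.13, n = 5), and -0.78, -0.33, -0.40, -0.41 and -0.29 on feature B (-0.44 ± 0.19, n = 5). MMTV-PyMT tumors read -0.36, -0.32, 0.54, -0.31 and 0.01 on feature A (-0.09 ± 0.38, n = 5), and -0.39, -0.46, -0.14, -0.64 and 0.11 on feature B (-0.30 ± 0.29, n = 5). Only feature B in MMTV-her2/neu lay on 1 side of 0 on every array of these models. MMTV-ras tumors read -0.28, -0.07, 0.19, 0.13 and -0.11 on feature A (-0.03 ± 0.19, n = 5), and -0.07, -0.11, 0.17 and 0.42 on feature B (0.10 ± 0.25, n = 4, with no value for replicate 3). MMTV-myc tumors read 0.22, 0.74, 0.02 and -1.35 on feature A (-0.09 ± 0.89, n = 4), where replicate 4 stood apart and the mean without it was 0.33. Feature B read -0.22, -0.16, 0.15 and 0.19 (-0.01 ± 0.21, n = 4) in the same tumors, with no array set apart. The arrays of the p53 and Brca1 models shared no run of database numbers with the FVB models, and these models differ in strain too, so that run, strain and genotype cannot be told apart between them.

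**Figure D2:**
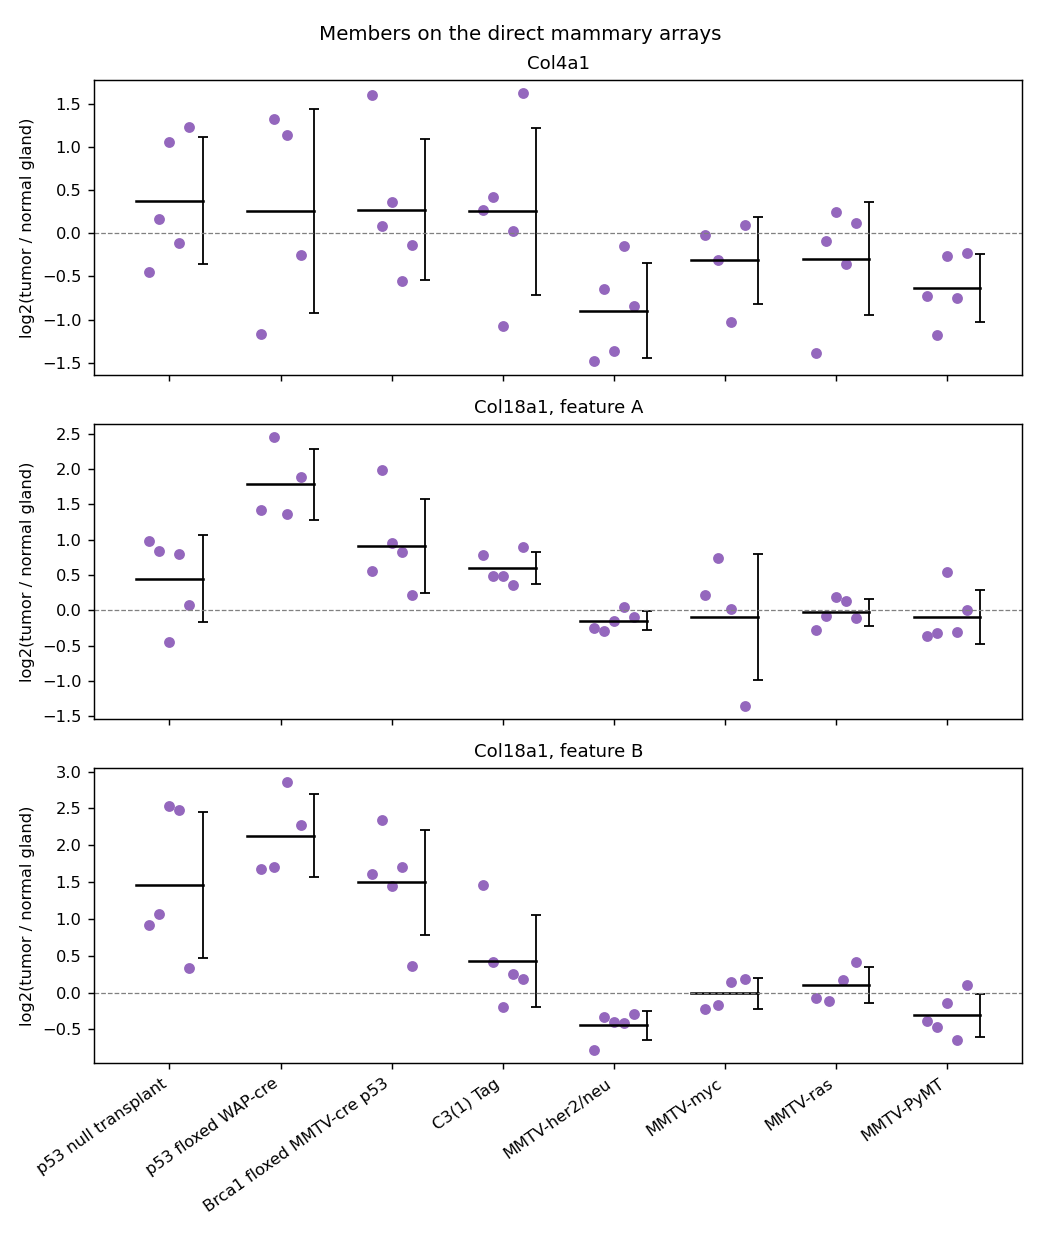
Log2 ratio of mammary tumor over normal gland for Col4a1 and the 2 Col18a1 features (1 panel each), in the 8 direct models. Points are arrays, the black line is the model mean and the bar beside it 1 SD. Col18a1 is highest in p53 floxed WAP-cre tumors (means 1.78 and 2.13) and lies near 0 in the 4 MMTV oncogene models, and Col4a1 is lowest in MMTV-her2/neu (-0.90).

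C3(1) Tag mammary tumors were measured both ways, and the 2 designs differed for all 3 features. On the reference arrays the differences were -0.92 for Col4a1, -0.37 for feature A and -0.64 for feature B. On the direct arrays Col4a1 averaged 0.25. Feature A there read 0.79, 0.48, 0.48, 0.37 and 0.90 (0.60 ± 0.23, n = 5), above 0 on every array, as were 36.9% of all features. Feature B read 1.46, 0.41, -0.20, 0.26 and 0.19 (0.43 ± 0.62, n = 5). The direct C3(1) Tag arrays were off centre as deposited, with a median of 0.35 over all features tested. After each array was centred on its median, Col4a1 was -0.08, feature A 0.27 and feature B 0.09, still above the reference differences. The labels do not say whether the same tumors or normal glands were used in both designs. Skeletal muscle features differed between them: 0 of 14 passed on the reference arrays (median -0.28), and 11 of 14 fell on the direct arrays (median -2.20). The part of muscle in the difference was not tested. Other basement membrane genes did both: Nid1 fell on both designs (-1.57 on reference arrays, -1.45 on direct arrays), whereas Hspg2 fell on the reference arrays (-0.72) and rose on the direct arrays (1.31).

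The partner gene Col4a2 differed in the same direction as Col4a1 at seminal vesicle, mammary gland and lung. Col4a2 rose in seminal vesicle tumors by 1.78 ± 0.18 (adjusted p = 8.0e-09) and in prostate tumors by 0.52 ± 0.19 (adjusted p = 0.0185). It fell in mammary tumors, with a change of -1.67 ± 0.20 (adjusted p = 3.76e-08), and in lung tumors, with -1.10 ± 0.20 (adjusted p = 4.39e-05). In prostate Col4a1 was at 0.15 ± 0.20 and overlapped the normal arrays. At lung and seminal vesicle these changes were close to those of Col4a1 (-1.15 and 1.99), and in mammary gland Col4a2 changed by more than Col4a1 (-0.92), a difference that was not tested. On the direct arrays Col4a2 passed in none of the 8 models, with means from -0.59 to 0.36.

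Across arrays Col4a1 and Col4a2 gave 0.946 (Pearson r) and 0.894 (Spearman rho) over the 35 reference arrays, and 0.761 and 0.729 over 37 direct arrays. After the mean of each group was taken off, r was 0.807 and rho 0.613 on the reference arrays, and 0.806 and 0.835 on the direct arrays. Arrays within a group thus also moved together, less closely by rank on the reference arrays. Features A and B of Col18a1 gave r = 0.904 and rho = 0.902 over 35 reference arrays and 0.657 and 0.659 over 37 direct arrays. With group means taken off, their r was 0.778 (rho 0.657) on the reference arrays but 0.0919 (rho 0.0808) on the direct arrays. On the direct arrays the 8 model means of both features gave r = 0.905, so the features of this gene ordered the models alike but not the arrays within a model. Col4a1 with Col18a1 gave r = 0.516 for feature A and 0.688 for feature B on reference arrays. Points of 1 array share its hybridisation and its scaling, and these values are descriptions.

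**Figure D3:**
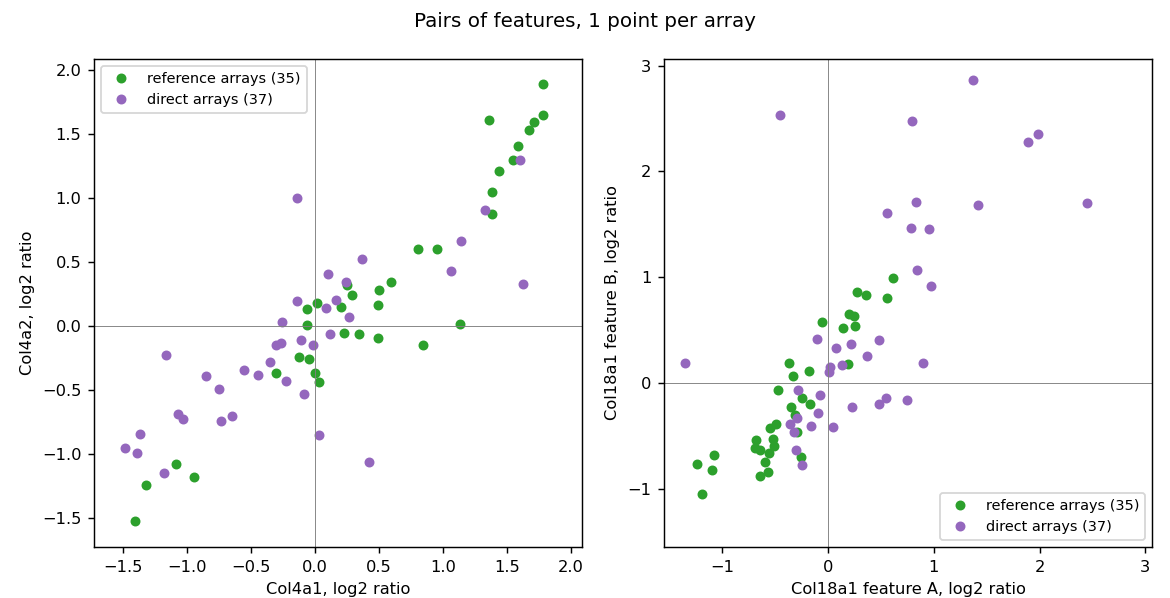
Each point is 1 array: Col4a2 against Col4a1 (left) and Col18a1 feature B against feature A (right), all as log2 ratios, with reference arrays in green and direct arrays in purple. Col4a1 and Col4a2 lie close to a line on both designs (r of 0.946 and 0.761), while the Col18a1 features scatter more on the direct arrays (r of 0.657).

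The features most like Col4a1 over the 35 reference arrays, after Col4a2, were Sparc (r = 0.908), a collagen-binding matrix protein, Igfbp4 (0.886), which binds insulin-like growth factors, Nid2 (0.866), which links laminin to type IV collagen, and Anxa5 (0.860), a phospholipid-binding protein. Over the direct arrays their r with Col4a1 was 0.598 for Sparc, 0.508 for Igfbp4, -0.00579 for Nid2 and 0.477 for Anxa5. Feature A of Col18a1 was most like Col6a1 (0.900), a chain of type VI collagen, Serpinf1 (0.893), a secreted inhibitor of blood vessel growth, Krt5 (0.864), a basal keratin, Col1a2 (0.851) and Mmp2 (0.850). Feature B was most like Col6a1 (0.940), Ube2c (0.888), a mitotic ubiquitin-conjugating enzyme, Krt5 (0.869), Plod1 (0.869), a collagen lysyl hydroxylase, and Crtap (0.869), a partner of the collagen prolyl 3-hydroxylase. Col6a1 and Krt5 were thus named by both Col18a1 features. Their r over the direct arrays was lower, at 0.356 and 0.439 for Col6a1 and 0.203 and 0.272 for Krt5. Serpinf1, Ube2c and Crtap held no direct values for this purpose, and r was 0.387 for Col1a2, 0.256 for Mmp2 and -0.0972 for Plod1.

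The rest of the basement membrane list comprised 22 features of 21 genes, with Col4a1 and Col18a1 left out. In seminal vesicle tumors 12 of 22 rose and 2 fell (limma, Benjamini-Hochberg adjusted p under 0.05), with a median change of 0.46 against 0.03 over all features, of which 22% rose and 20.7% fell. After quantile normalization 9 rose and 0 fell. Normal and tumor arrays shared no run of database numbers at this site, and the fit with run as a block rested on the 2 tumors of run 6. In that fit 6 of the list passed in place of 14, and 1226 of all features in place of 4084. Sparc rose by 2.46 ± 0.26 (adjusted p = 1.95e-08) and Col4a5, the alpha 5 chain of specialised membranes, by 1.93 ± 0.26 (adjusted p = 6.83e-07). Nid1, which like Nid2 links laminin to type IV collagen, rose by 1.64, Lamb1 by 0.91 and Lamc1 by 0.47, the last 2 being chains of the commonest laminins. Hspg2, the proteoglycan perlecan, did not pass (0.25 ± 0.13).

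In lung tumors 0 basement membrane features rose and 10 of 22 fell, with a median of -0.40 against -0.04 over all features, and after quantile normalization 1 rose. Of all features there 15.9% rose and 18.5% fell. Hmcn1, a large matrix protein, changed by -1.80 ± 0.25 (adjusted p = 6.69e-07), Nid1 by -1.69 and Sparc by -1.54. Lamb1 (-0.90) and Hspg2 (-0.61) also fell, and Lamc1 did not pass (-0.11). In mammary tumors 3 rose and 9 fell, with a median of -0.32 against -0.01, where 15.5% of all features rose and 18.3% fell. Besides Col4a2, Nid1 (-1.57) and Sparc (-1.24) changed most, and Lamb1 (-1.18), Hspg2 (-0.72) and Lamc1 (-0.66) fell.

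In prostate tumors 4 basement membrane features rose and 14 of 22 fell, with a median of -0.54 against -0.01, and 29.2% of all features rose and 30.3% fell. Smoc2, a calcium-binding matrix protein, changed by -2.53 ± 0.23 (adjusted p = 2.28e-11), Col4a5 by -1.80 and Vwa1, a von Willebrand domain protein, by 1.46. Hspg2 (-0.92), Nid1 (-0.70) and Lamc1 (-0.52) fell, and Lamb1 did not pass (-0.16). Col4a1 (0.15) and Col4a2 (0.52) thus did not share the direction of most of the list in prostate, whereas both Col18a1 features were below 0.

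**Figure D4:**
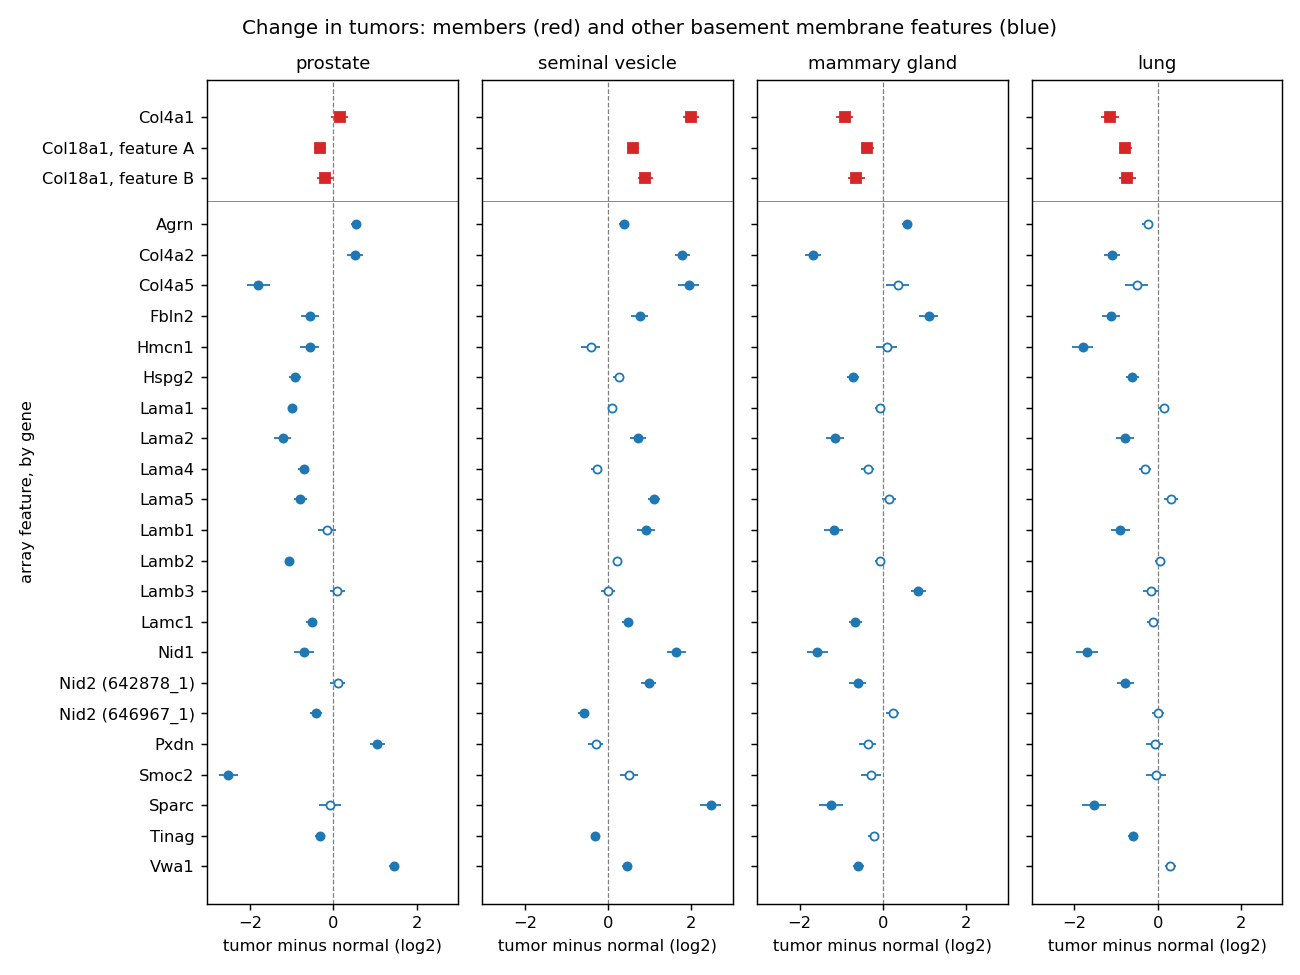
Tumor minus normal change (log2) with its SE at the 4 sites for Col4a1 and Col18a1 (red squares, no test) and for the 22 other basement membrane features (blue circles, filled where the adjusted p was under 0.05). In seminal vesicle tumors 12 circles are filled to the right of 0 and in lung tumors 10 are filled to the left.

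On the direct arrays the list of 20 measured basement membrane features was mixed. In p53 null transplants 1 rose and 5 fell, where 6.57% of all features rose and 8.05% fell. In p53 floxed tumors it was 2 and 5 (10.6% and 11%), or 3 and 3 after quantile normalization, and in Brca1 floxed tumors 3 and 4 (32.1% and 11.7%). In MMTV-her2/neu it was 1 and 5 (8.82% and 7.66%), in MMTV-myc 2 and 4 (20.7% and 2.55%), in MMTV-ras 0 and 1 (16.9% and 2.71%) and in MMTV-PyMT 2 and 2 (13.9% and 8.83%). In C3(1) Tag it was 10 and 1, where 41.4% of all features rose and 4.2% fell, and with centred arrays it was 7 and 6.

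Nid1 fell in all 8 models, with changes from -2.27 (MMTV-her2/neu) to -1.36 (p53 floxed). Lama2, the laminin alpha 2 chain best known from muscle, fell in 6 of 8, and changed most in Brca1 floxed tumors (-2.18 ± 0.26). Skeletal muscle features fell beside it, 9 to 14 of 14 in each model, with the lowest median in Brca1 floxed tumors (-4.28), and their part in the fall of Lama2 was not tested. Agrn, the proteoglycan agrin, rose in 4 of 8, by 1.44 in p53 null and 1.25 in p53 floxed tumors. Hspg2 fell in p53 null (-0.85) and p53 floxed tumors (-0.81) and rose in Brca1 floxed (0.64), C3(1) Tag (1.31) and MMTV-PyMT tumors (0.83). Lamb1 fell in MMTV-her2/neu (-1.32) and MMTV-myc (-1.06), and Lamc1 passed only in C3(1) Tag (0.50). Among other members of the list, Lamb3, an epithelial laminin chain, rose in C3(1) Tag (1.65) and Brca1 floxed tumors (1.26), and Col4a5 in C3(1) Tag (1.24), MMTV-myc (1.14), MMTV-her2/neu (1.03) and MMTV-PyMT (0.97). In p53 null transplants Smoc2 changed by -1.54, in p53 floxed tumors Lama5 by 1.10, in MMTV-PyMT Lama2 by -0.97 and in MMTV-her2/neu Sparc by -1.08. In MMTV-ras Sparc, which did not pass, was at -0.72.

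The split between rises and falls on the direct arrays depended on scaling. As deposited, rises were 90.8% of all passing features in C3(1) Tag, and they were 53.7% after median centring and 67% after quantile normalization. The same shares were 44.9%, 49.4% and 70.5% in p53 null, 49.2%, 60.1% and 71.1% in p53 floxed, and 73.2%, 52.9% and 69.9% in Brca1 floxed tumors. They were 53.5%, 57.6% and 67.7% in MMTV-her2/neu, 89%, 54.2% and 72.9% in MMTV-myc, and 86.2%, 53.3% and 72.2% in MMTV-ras. In MMTV-PyMT 1105 features rose and 702 fell as deposited, and its shares after rescaling are not given here. Centring moved the median over all features from 0.35 to 0.02 in C3(1) Tag, from 0.23 to 0.04 in Brca1 floxed, from 0.21 to -0.01 in MMTV-myc and from 0.18 to -0.0038 in MMTV-ras.

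Of the enzymes and carriers that modify and export collagen, 9 of 18 features rose and 1 fell in seminal vesicle tumors (median 0.40), where 22% of all features rose and 20.7% fell. Serpinh1, the collagen chaperone HSP47, rose by 2.33 ± 0.24 (adjusted p = 1.36e-08) and Lox, which cross-links collagen, by 1.5, and Bmp1, a procollagen protease, changed by -1.06. In lung 1 of 19 rose and 9 fell (median -0.35), led by Loxl3 (-1.91), Lox (-1.18) and Loxl1 (-1.05), all of the lysyl oxidase family. In mammary gland 1 rose and 6 fell (median -0.13), led by Serpinh1 (-1.29), Loxl1 (-0.93) and Lox (0.75). In prostate 3 of 18 rose and 3 fell (median -0.19), fewer than the 29.2% and 30.3% of all features, led by P4ha1 (1.22) and P4hb (-1.01), subunits of the collagen prolyl 4-hydroxylase, and 1 of 2 features of Sec23a (0.65, the other at 0.19), a coat protein of export vesicles. On the direct arrays P4hb rose in 7 of 8 models, by 1.10 to 2.61 where it passed, and Plod1 rose in 6 of 8.

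Of the fibrillar collagens, 5 of 6 features rose in seminal vesicle tumors (median 1.81), where 22% of all features rose, with Col1a2 up by 2.74, Col1a1 by 2.66 and Col2a1 by 2.47. In lung 3 of 6 fell (median -0.64): Col1a2 (-1.0), Col1a1 (-0.69) and 1 of the 2 Col5a2 features (-0.68, the other at -0.27). In prostate 1 fell, the same Col5a2 feature (-0.57, the other at -0.05), and Col11a2 was at -0.52. In mammary gland 0 passed, with Col1a2 at -0.52 ± 0.27 and Col1a1 at -0.50 ± 0.26. As deposited 0 fibrillar features rose in any direct model, and 1 rose in Brca1 floxed tumors after quantile normalization. The 2 features of Col5a2 disagreed: 1 fell in 5 of 8 models, and the other passed in 0 and was above 0 in 5.

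Proteases that cut type IV collagen or release endostatin, with their inhibitors, gave 5 rises and 0 falls among 11 features in seminal vesicle tumors, against 22% and 20.7% of all features. The gelatinase Mmp2 rose by 1.32, the membrane protease Mmp14 by 1.12 and the cathepsin Ctss by 0.88. In lung 2 rose and 6 fell (15.9% and 18.5% of all features), led by Reck (-1.75), a membrane-anchored inhibitor, Mmp2 (-1.18) and the cathepsin Ctsl (-1.09). In mammary gland 3 rose and 2 fell, near the 15.5% and 18.3% of all features, led by the gelatinase Mmp9 (-2.18), the inhibitor Timp1 (1.57) and Mmp2 (-0.89). In prostate 1 rose and 5 fell (29.2% and 30.3% of all features), led by Mmp9 (-2.21), the macrophage elastase Mmp12 (0.63) and Reck (-0.60). Mmp14 rose in 4 of 8 direct models. Mmp12 rose by 2.57 and Timp1 by 2.25 in Brca1 floxed tumors.

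Receptors of basement membrane collagens, laminin and endostatin rose in 12 and fell in 2 of 19 features in seminal vesicle tumors (22% and 20.7% of all features), led by the integrin Itgb1 (1.13), the syndecan Sdc1 (0.96) and the semaphorin receptor Nrp1 (0.96). After quantile normalization 6 rose and 0 fell. In lung 1 rose and 9 fell (15.9% and 18.5% of all features), led by Nrp1 (-1.95), the VEGF receptor Kdr (-1.04) and the collagen receptor Ddr2 (-1.0). In mammary gland 6 rose and 7 fell (15.5% and 18.3% of all features), led by Sdc1 (2.15), Kdr (-1.49) and Nrp1 (-1.25). In prostate 0 rose and 7 fell (29.2% and 30.3% of all features), led by the glypican Gpc4 (-1.0), dystroglycan Dag1 (-0.85) and Sdc4 (-0.78). Across the direct models, in which 6.57% to 41.4% of all features rose and 2.55% to 11.7% fell, Sdc1 rose in 8 of 8, Itgb1, Itgb4 and the collagen receptor Ddr1 each in 7 of 8, and the laminin receptor Itga6, Sdc2 and Gpc4 each in 4 of 8. Of the 2 features of Kdr, 1 fell in 7 of 8 and the other in 1, and the 2 features of Nrp1 in 6 and 5 of 8.

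Markers of vessel, stromal and fat cells moved with several of these differences. In lung, where Col4a1 and Col18a1 were lower in tumors, 12 of 16 endothelial features fell and 0 rose. Over all features there, 18.5% fell and 15.9% rose. The endothelial mean went from 1.39 to 2.16 over the normal arrays to 0.42 to 0.77 over the tumors. Of the fibroblast features 3 of 7 fell, with means of 0.32 to 0.63 in normal lung and -0.72 to -0.46 in tumors. In the same tumors 8 of 10 epithelial features rose, and 7 of 10 lung epithelium features fell and 1 rose. In mammary gland 18.3% of all features fell and 15.5% rose. There 10 of 16 endothelial features fell, from means of 1.01 to 1.30 to means of 0.30 to 0.56. Likewise 13 of 13 adipocyte features fell, from 3.15 to 3.61 to 0.45 to 1.89. The part of these cells in the lower collagen values was not tested.

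In seminal vesicle, where Col4a1 was 1.99 higher in tumors, endothelial features did not move that way: 1 of 16 rose and 2 fell, with means of 0.52 to 0.61 in the normal gland and 0.34 to 0.78 in tumors. Fibroblast features did, with 5 of 7 rising and 1 falling, from means of -0.39 to -0.21 to means of 0.0028 to 1.05, and 6 of 13 pericyte and smooth muscle features rose and 1 fell, from 0.61 to 0.82 to 0.81 to 1.44. Over all features in seminal vesicle, 22% rose and 20.7% fell. In prostate, where 29.2% of all features rose and 30.3% fell, 9 of 16 endothelial features fell and 1 rose. There 10 of 13 pericyte and smooth muscle, 12 of 13 adipocyte and 4 of 7 fibroblast features fell. In these lists 1, 0 and 1 rose. On the direct arrays endothelial features that passed numbered 0 rises and 4 falls of 15 in MMTV-her2/neu and 0 and 5 in MMTV-PyMT. In both models Col4a1 was below 0 on every array. Over all features 8.82% rose and 7.66% fell in MMTV-her2/neu, and 13.9% rose and 8.83% fell in MMTV-PyMT. In Brca1 floxed tumors 2 endothelial features rose and 6 fell (32.1% and 11.7% of all features), with Col4a1 at 0.27 on average. In p53 floxed tumors, where Col18a1 was highest, 0 rose and 4 fell (10.6% and 11% of all features). In every model 8 to 12 of 12 adipocyte and 9 to 14 of 14 skeletal muscle features fell, against 2.55% to 11.7% of all features. In p53 floxed tumors these were 12 of 12 and 10 of 14. The part of stromal, vessel, fat and muscle cells in these values was not tested.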

How the data were processed

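Log2 ratios, 1 per feature and array, were used as deposited by the authors. Neither base nor direction is in the labels. Read as log2, the rule in the series text (interaction p under 0.001 and a 2-fold range) gave its stated 2638 features, against 3770 for natural log and 4174 for log10. Marker genes set the reading as sample over reference, and a Pearson r of 0.481 between the direct C3(1) Tag arrays and the reference mammary change set tumor over normal. Background correction and filters before deposit are not given in the sources used here.

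Of the features, 7486 carry 1 symbol, 483 several and 1627 none, and 7395 symbols were matched by gene ID to RefSeq (GRCm38.p6). Features were fitted apart with limma 3.58.1 in R 4.3.3 (data.table, version 1.17.8): 8 group means over reference arrays, and 8 model means against 0 over direct arrays. A feature was tested with at least 3 values per group, and the threshold was an adjusted p (Benjamini-Hochberg) under 0.05. Members and lists were chosen with earlier results of these data known. Of each list, up to 3 passing features of largest absolute change were named per site (on direct arrays for the basement membrane list), and the 2 largest where under 2 passed, with Col4a2, Nid1, Lamc1, Lamb1 and Hspg2. For the other lists on direct arrays, genes passing in 4 or more models were named, with Mmp12 and Timp1, which passed in 1 model each, all chosen after their values were seen. Col15a1 was not analysed here. The fits were tested on simulated data. The number of arrays limits the precision, and signal over background was not analysed here. Arrays numbered alike in the labels did not move together (r from -0.228 to 0.216), so no pairing entered the fit.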

Additional observations from a re-analysis of the deposited data

Results flagged for a closer look

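In normal mammary gland, replicate 2 stood below the other arrays for Col4a1, at 1.36. In MMTV-her2/neu tumors, replicate 1 stood below the others for Col18a1 feature B, at -0.78. These 2 came from 48 groups of values, and chance sets apart about 1 group in 20.

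The direction of the tumor change differed between sites. For Col4a1 all tumors lay above the normal mean in prostate (0.15) and seminal vesicle (1.99), and all lay below it in mammary gland (-0.92) and lung (-1.15). The prostate tumors overlapped the normal arrays for Col4a1, and that difference was smaller than its SE of 0.20. How many of all features met this rule was not counted. For Col18a1 feature A all seminal vesicle tumors lay above the normal mean (0.60), and all tumors lay below it in prostate (-0.32), mammary gland (-0.37) and lung (-0.78). These differences between sites were not tested, and the genes were chosen with these levels in view.

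As deposited, Col18a1 feature B was above 0 on every array of p53 null transplants (1.47), p53 floxed WAP-cre (2.13) and Brca1 floxed tumors (1.5). It was below 0 on every MMTV-her2/neu array (-0.44). The difference between these models was not tested.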

How the results depend on the processing

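All Col4a1 and Col18a1 site differences kept their direction under median centring, quantile normalization, the filter for features with a value on every array and without any 1 array. They also kept it with run as a block. For seminal vesicle that fit rested on the 2 tumors of run 6 and could not check the tumors of the other runs. Within run 1 the direction was kept for prostate, mammary gland and lung, as no run held both kinds of seminal vesicle array. Only the mammary Col4a1 difference (-0.58 after quantile normalization) and the seminal vesicle feature A difference (0.91 with run as a block) moved by more than the spread between arrays. Quantile normalization gave 2212 passing features in seminal vesicle (9 of the basement membrane list), 3019 in p53 null (10), 3047 in MMTV-her2/neu, 2634 in MMTV-ras (5) and 2944 in MMTV-PyMT (10). Median centring gave 4 basement membrane features in MMTV-ras and 7 in MMTV-PyMT. With only features valued on every array, fewer were tested, and 449 passed in p53 null (3 of the list), 689 in p53 floxed (3), 1463 in Brca1 floxed, 1254 in C3(1) Tag (4), 584 in MMTV-her2/neu, 776 in MMTV-myc, 617 in MMTV-ras (0) and 742 in MMTV-PyMT (2). Run as a block gave 1226 in seminal vesicle, and 6 of the list. Without 1 array, passing features ranged from 739 to 1015 in p53 null, 842 to 1388 in p53 floxed, 764 to 977 in MMTV-her2/neu, 1046 to 1978 in MMTV-myc, 749 to 1591 in MMTV-ras and 1061 to 1678 in MMTV-PyMT. The list counts ranged from 3 to 6 in p53 null, 2 to 6 in p53 floxed, 2 to 5 in MMTV-her2/neu, 3 to 5 in MMTV-myc and 1 to 3 in MMTV-ras. The lowest numbers of passing features came without p53 null replicate 2, p53 floxed replicate 3, MMTV-her2/neu replicate 1, MMTV-myc replicate 3 and MMTV-ras replicate 3. In MMTV-PyMT it came without replicate 5. Counts also moved by over 1.5 times without p53 floxed replicate 4, MMTV-her2/neu replicate 2, MMTV-myc replicates 1 and 2, MMTV-ras replicates 4 and 5 and MMTV-PyMT replicate 1. The causes were not tested.

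With the replicate number as a block, the Col4a1 differences were 0.16 in prostate, 2.18 in seminal vesicle, -0.92 in mammary gland and -1.15 in lung. Same-numbered arrays were not paired, and the block gave 5591, 4005, 3285 and 3342 passing features at these sites.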
